A study of Mus musculus with 2 samples.

Results

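The 10 antioxidant enzyme genes Sod1, Sod2, Sod3, Cat, Gpx1, Gpx3, Prdx6, Hmox1, Nqo1 and Txnrd1 were examined in lung mRNA of the mouse. They are a list of names grouped by known role, drawn up with earlier results of these libraries known, and all 10 were found among the 43346 genes of the deposited tables. Whole lung of 1 female C57BL/6J mouse, an adult of 10 weeks with no treatment or engineered allele named, was sequenced as polyadenylated RNA in 2 libraries. Per the labels both are technical replicates of that animal, named replicate 2 and replicate 1, and replicate 2 was prepared later. The RNA came from a column kit for lipid-rich tissue, and whether both libraries share an extraction is not stated. The spread between them is therefore technical, no p-value can be given, and no treatment or genotype was compared.

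Oxygen-consuming cells leak superoxide, which superoxide dismutases turn into hydrogen peroxide, and catalase, glutathione peroxidases and peroxiredoxins then reduce the peroxide. Thioredoxin reductase, haem oxygenase and NAD(P)H quinone dehydrogenase belong to the set that the transcription factor NRF2 switches on under oxidative or electrophilic stress. The lung faces more oxygen than other organs, and its lining and blood vessel walls are known for extracellular superoxide dismutase and for peroxiredoxin 6, which also takes part in surfactant phospholipid turnover.

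The catalytic residue sets the members apart at the level of the mRNA. Gpx1, Gpx3 and Txnrd1 encode selenocysteine, read from a UGA codon that elsewhere ends translation, while Prdx6 uses an ordinary cysteine. The coding sequence around each such codon is shown from the reference annotation of build GRCm38, with the codon in capitals, because the transcript estimates described further on differ in whether they contain it.

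Gpx1: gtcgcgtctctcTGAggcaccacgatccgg
Gpx3: gtagccagctacTGAggtctgacagaccaa
Txnrd1: gacatcctccagtctggctgcTGAggttaa
Prdx6: tttaccccagtgTGCaccacagaacttggc

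The Gpx1 stretch lies at chr9:108339439-108339468 on the plus strand, and its capitals mark codon 47 of 201. The Gpx3 stretch lies at chr11:54907244-54907273 on the plus strand, and its capitals mark codon 73 of 226. In Txnrd1 (chr10:82896016-82896045, plus strand) the selenocysteine codon is number 498 of 499, one codon before the end of the protein. The Prdx6 stretch (chr1:161247353-161247382, minus strand) carries the codon of the peroxidatic cysteine, number 47 of 224.

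Replicate 2 held 17110871 expected counts and replicate 1 held 16104423, with 19597 genes above 0 in replicate 2 and 17892 in replicate 1. Markers of airway and alveolar cells were detected in both libraries, some of them near 0 in replicate 1. Scgb1a1, the club cell secretoglobin, reached 174257 TPM in replicate 2 and 17498 TPM in replicate 1. Scgb3a2, another club cell marker, had 4406 TPM in replicate 2 and 4671 TPM in replicate 1. TPM, the unit of level used throughout, is a transcript's share of all transcripts after division by its length. The 6 markers of alveolar type 2 cells summed to 47781 TPM in replicate 2 and 2900 in replicate 1. Sftpc made up 39612 TPM of that sum in replicate 2 and 287 TPM in replicate 1. Of the 6 only Lamp3 went the other way, with 191 TPM in replicate 2 and 687 in replicate 1. Cldn5, a claudin of endothelial junctions, had 607 TPM in replicate 2 and 0.43 in replicate 1. The 5 endothelial markers together went the other way, with a sum of 1262 TPM in replicate 2 and 1686 in replicate 1. The macrophage gene C1qb had 84.7 TPM in replicate 2 and 0.89 in replicate 1. Its list, of other macrophages and monocytes, summed to 342 TPM in replicate 2 and 41.5 in replicate 1. The 7 alveolar macrophage markers went the other way as a sum, with 1944 TPM in replicate 2 and 2779 in replicate 1. Markers of liver summed to 2.85 TPM in replicate 2 and 1.44 in replicate 1, and those of kidney to 0.21 in replicate 2 and 0.07 in replicate 1, with the liver gene Ttr at 0 in both. The libraries differed widely from each other. Of the 14139 genes with a mean of at least 1 TPM, which are called tested genes below, 39.3% were higher in replicate 2 than in replicate 1 by over 2-fold after scaling, and 28.2% were lower by as much.

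All 10 enzymes were detected in both libraries, from 5.69 to 1114 TPM in replicate 2 and from 5.64 to 818 TPM in replicate 1. Summed, they reached 4244 TPM in replicate 2 and 1620 TPM in replicate 1, or 0.424% of all transcripts in replicate 2 and 0.162% in replicate 1. The peroxide removers Cat, Gpx1, Gpx3 and Prdx6 made up most of this, with 2937 TPM in replicate 2 and 1294 in replicate 1. The superoxide dismutases summed to 1246 TPM in replicate 2 and 283 in replicate 1, and the NRF2 targets Hmox1, Nqo1 and Txnrd1 to 61.0 TPM in replicate 2 and 42.5 in replicate 1. Of the 45 pairs of enzymes, 32 stood in the same order of level in both libraries and 13 in opposite order. Prdx6 was above Cat, Gpx1, Sod2, Sod3 and the NRF2 targets in both, and Nqo1 was below all the others in both, except that Hmox1 was lower still in replicate 1. The order of Prdx6 against Sod1 and Gpx3 differed between the libraries, as did that of Cat against Sod1, Gpx1 and Gpx3, so these neighbours cannot be ranked.

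**Figure D1:**
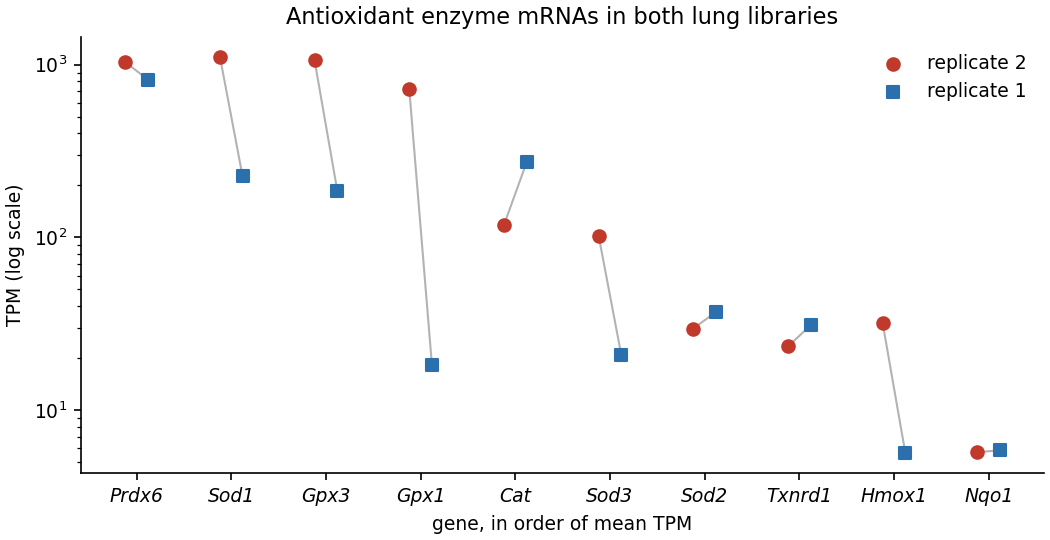
Level of each antioxidant enzyme mRNA in TPM on a log axis, with a red circle for replicate 2, a blue square for replicate 1 and a line joining the libraries. Gpx1 spans the widest distance, 723 TPM in replicate 2 against 18.15 TPM in replicate 1, while the points of Nqo1, Sod2, Txnrd1 and Prdx6 lie close together.

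Among the superoxide dismutases, Sod1, the cytosolic copper and zinc enzyme, was the most abundant in both libraries. It had 1114 TPM in replicate 2 and 225 TPM in replicate 1, from 8133 counts in replicate 2 and 1178 in replicate 1. It made up 89.4% of superoxide dismutase mRNA in replicate 2 and 79.6% in replicate 1. After scaling by trimmed mean of M values (TMM), its counts were 5.42-fold higher in replicate 2 (95% counting interval 5.10 to 5.76). The gene lies on chromosome 16 from 90220754 to 90226329, plus strand, and its 3′ end overlaps Scaf4 on the opposite strand, which had 387 counts in replicate 2 and 265 in replicate 1. Whether counting used strand is not given in the sources used here, but Scaf4 held far fewer counts than Sod1.

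Sod2, the manganese enzyme of mitochondria, was nearly level between the libraries. It had 29.6 TPM in replicate 2 and 37.0 TPM in replicate 1 (mean 33.3 ± 5.20, SD, n = 2), from 1702 counts in replicate 2 and 1507 in replicate 1. Its scaled counts were 1.13-fold lower in replicate 2 (1.05 to 1.21), and with scaling by total counts the difference was 0.09 on the log2 scale in the opposite direction. Sod2 accounted for 2.38% of superoxide dismutase mRNA in replicate 2 and 13.1% in replicate 1. It lies on chromosome 17 from 13006846 to 13040063, plus strand.

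Sod3, the secreted enzyme bound to the matrix of airways and vessels, had 102 TPM in replicate 2 and 20.8 TPM in replicate 1, from 5477 counts in replicate 2 and 789 in replicate 1. This was 5.44-fold higher in replicate 2 (5.05 to 5.88), about as far apart as Sod1. Sod3 lay above Sod2 in replicate 2 and below it in replicate 1. The gene lies on chromosome 5 from 52363791 to 52371418, plus strand.

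Among the peroxide removers, Prdx6, the peroxiredoxin with a single catalytic cysteine, had the highest mean level of all 10 enzymes. It had 1037 TPM in replicate 2 and 818 TPM in replicate 1 (mean 927 ± 155, SD, n = 2), from 17021 counts in replicate 2 and 10123 in replicate 1. Its scaled counts were 1.32-fold higher in replicate 2 (1.29 to 1.35), a difference within 2-fold with a counting interval wholly above no difference. Its direction turned when a trend on GC content was subtracted (described further on), to -0.83 on the log2 scale with the trend on averaged GC content and to -0.26 with that on the main transcript. It lies on chromosome 1 from 161240112 to 161251219, minus strand.

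Cat, the peroxisomal catalase, was the only one of the 10 enzymes over 2-fold lower in replicate 2. It had 118 TPM in replicate 2 and 272 TPM in replicate 1, from 4512 counts in replicate 2 and 7396 in replicate 1. The scaled difference was 2.09-fold (2.01 to 2.17), and scaling by total counts brought it to -0.80 on the log2 scale, which is within 2-fold. Cat had rank 5 of the 10 enzymes in replicate 2 and rank 2 in replicate 1. It lies on chromosome 2 from 103453849 to 103485160, minus strand.

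Gpx1, the cytosolic glutathione peroxidase, differed most between the libraries. It had 723 TPM in replicate 2 and 18.15 TPM in replicate 1, from 7736 counts in replicate 2 and 181 in replicate 1. Its scaled counts were 33.5-fold higher in replicate 2 (28.9 to 39.1). It was the fourth most abundant of the enzymes in replicate 2 and the eighth in replicate 1. The gene lies on chromosome 9 from 108338903 to 108340343, plus strand.

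Gpx3, the secreted glutathione peroxidase of plasma and tissue fluids, had the most counts of the enzymes in replicate 2. It had 1059 TPM in replicate 2 and 186 TPM in replicate 1, from 23577 counts in replicate 2 and 1980 in replicate 1. The scaled counts were 9.34-fold higher in replicate 2 (8.93 to 9.79), while the TPM values were 5.68-fold apart. Part of that gap comes from the length by which TPM divides, since the authors' mean transcript length was 1594 bases in replicate 2 and 1129 bases in replicate 1, and part from the scaling of the libraries. It lies on chromosome 11 from 54902453 to 54910377, plus strand.

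The NRF2 targets were low. Hmox1, the inducible haem oxygenase, had 32.0 TPM in replicate 2 and 5.64 TPM in replicate 1, from 716 counts in replicate 2 and 90 in replicate 1, and was 6.21-fold higher in replicate 2 (5.01 to 7.86). Txnrd1, the cytosolic thioredoxin reductase, had 23.3 TPM in replicate 2 and 31.0 TPM in replicate 1 (mean 27.2 ± 5.40, SD, n = 2), from 1191 counts in replicate 2 and 1121 in replicate 1. Nqo1, the quinone dehydrogenase, had 5.69 TPM in replicate 2 and 5.86 TPM in replicate 1, from 123 counts in replicate 2 and 90 in replicate 1. Txnrd1 was 1.20-fold lower in replicate 2 (1.10 to 1.30), but by total counts it did not differ, at 69.6 CPM (counts scaled by the total of the library) in each library. The ratio of Nqo1, 1.07-fold, had a counting interval on both sides of no difference (0.811 to 1.42). The counting interval of Hmox1 did not overlap those of the other NRF2 targets. This gap to Nqo1 was lost with a GC trend subtracted, where Hmox1 was at 0.76 and Nqo1 at 0.82 on the log2 scale by averaged GC content, and at 0.78 and 0.69 by that of the main transcript. Hmox1 lies on chromosome 8 from 75093621 to 75100589, plus strand, Nqo1 on the same chromosome from 107388225 to 107403206, minus strand, and Txnrd1 on chromosome 10 from 82833951 to 82897712, plus strand. Txnrd1 overlaps Gm38560 and Gm47073 on the opposite strand and Eid3 on its own, which were not analysed here.

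**Figure D2:**
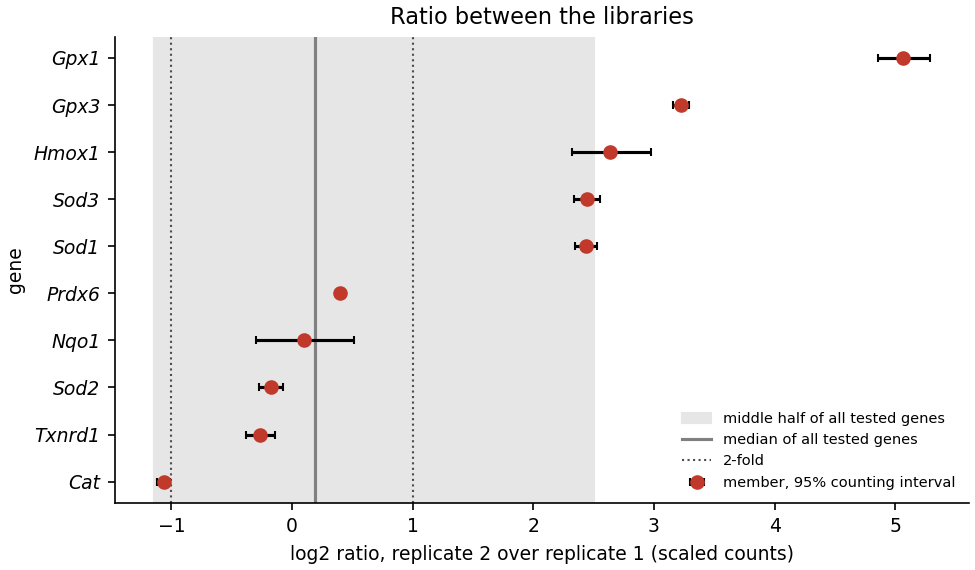
Log2 ratio of replicate 2 over replicate 1 from TMM-scaled counts for each enzyme, with exact 95% counting intervals as bars; the grey band spans the middle 50% of all tested genes, the grey line is their median and dotted lines mark 2-fold. Gpx1, Gpx3 and Hmox1 lie beyond the right edge of the band, and Cat lies near its left edge.

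Counted together, 5 of the 10 enzymes were over 2-fold higher in replicate 2 (Gpx1, Gpx3, Hmox1, Sod3 and Sod1), where the share of all tested genes was 39.3%. Cat alone was over 2-fold lower, where that share was 28.2%, and Prdx6, Nqo1, Txnrd1 and Sod2 were within 2-fold. The median log2 ratio of the enzymes was 1.42, against 0.19 for all tested genes, whose middle 50% ran from -1.15 to 2.50. Gpx1, Gpx3 and Hmox1 lay above that range and no enzyme lay below it. The share of enzymes past 2-fold was thus near that of the libraries at large. Scaling by total counts moved the median of all tested genes to 0.45, and taking TPM in place of scaled counts moved it to 0.01.

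The ratio moved with the GC content of the transcripts. Over 13996 tested genes, the log2 ratio and the GC content of each gene's main transcript, the one with the highest mean share, had a Pearson r of 0.801. The 5 enzymes over 2-fold higher had a main transcript of 52.7 to 57.2% GC, and the other 5 one of 42.2 to 50.7% GC, so these ranges did not overlap. Over the 10 enzymes r was 0.854 and Spearman's rho 0.891, given as a description since all points come from the same libraries. Gpx1, with the largest ratio, had the highest GC content at 57.2%, and Gpx3 followed at 56.0%. With GC content averaged over all annotated transcripts of a gene, r over the enzymes was 0.590 and rho 0.685. By that measure the ranges overlapped, at 50.4 to 56.4% GC for the 5 higher enzymes and 46.7 to 53.5% for the other 5.

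Subtracting the trend on that averaged GC content left 3 enzymes over 2-fold higher, Sod1 (2.10 on the log2 scale), Gpx1 (1.76) and Sod3 (1.03), where 22.6% of all genes with a GC content were. It left Cat (-2.07), Sod2 (-1.98) and Txnrd1 (-1.10) over 2-fold lower, where 20.5% of those genes were. Subtracting instead the trend on the GC content of the main transcript, a measure added after the values were seen, left Sod2 (1.35) over 2-fold higher, where 19.1% of genes were, and Cat (-1.01) over 2-fold lower, where 16.2% were. The direction of Sod2 thus depended on which transcripts entered its GC content, which was 53.5% averaged over all of them and 42.2% in Sod2-201. The reference Sod2-201 is 5861 bases long and the deposited one 3824, so the GC content of Sod2-201 used here is that of a longer sequence. Gpx1 came to 0.99, Sod3 to 0.88, Hmox1 to 0.78, Nqo1 to 0.69, Sod1 to 0.63, Gpx3 to -0.22, Prdx6 to -0.26 and Txnrd1 to -0.29 by that measure. Cat was lower in replicate 2 by both subtractions and before them. The part of GC content in these differences was not tested.

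**Figure D3:**
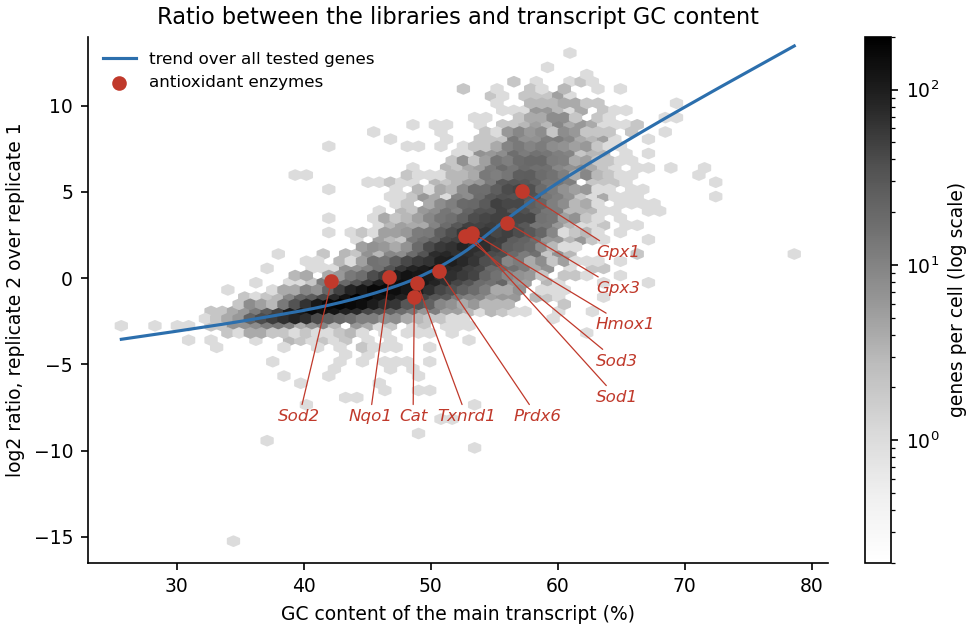
Log2 ratio of replicate 2 over replicate 1 against the GC content of the main transcript in percent, with all tested genes as grey cells, darker where more genes fall (log scale), their smoothed trend as a blue line, and the 10 enzymes in red. The enzymes with the most GC, Gpx1 at 57.2% and Gpx3 at 56.0%, have the largest ratios, and Sod2 lies above the trend while Cat lies below it.

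At the level of transcripts, Sod1, Sod2, Sod3, Nqo1 and Txnrd1 have 1 transcript each in the deposited annotation, so their shares were fixed. Of the other 5 enzymes, Cat and Hmox1 had a single transcript with at least 10% of the gene's TPM in both libraries, and Gpx1, Gpx3 and Prdx6 did not. For Gpx1, replicate 2 was divided among Gpx1-201 with 42.9%, Gpx1-204 with 36.1% and Gpx1-202 with 20.9%, while replicate 1 was assigned almost wholly to Gpx1-201, with 99.3%. The last value rests on 181 counts. Gpx1-204 and Gpx1-202, together 56.97% in replicate 2 and 0% in replicate 1, have annotated coding sequences that do not contain the selenocysteine codon shown above. These coding sequences are annotated to start at position 108339481, after that codon. Whether the codon lies in the rest of these transcripts was not analysed here. The shares are the authors' estimates over transcripts that overlap for much of their length.

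For Gpx3, replicate 2 was assigned to Gpx3-201 with 99.95%, while replicate 1 was divided between Gpx3-202 with 60.8% and Gpx3-201 with 39.2%. Both transcripts start their last exon at position 54909437 of chromosome 11. That exon runs for 941 bases in Gpx3-201 and for 140 bases in Gpx3-202, so the annotated transcripts end at different positions. The annotated coding sequence of Gpx3-202 runs to its last base, 54909576, so no bases follow it. In Gpx3-201 the coding sequence ends at 54909655, past the last base of Gpx3-202. The annotation of Gpx3-202 thus stops inside the coding stretch of Gpx3-201 and does not show where such an mRNA would end. Whether an mRNA matching Gpx3-202 is present was not tested. These transcripts also differ upstream, as Gpx3-201 has 5 exons and Gpx3-202 has 6. Gpx3-201 stood at 1059 TPM in replicate 2, against 73.0 TPM in replicate 1. Gpx3-202 was at 0 TPM in replicate 2, against 113 TPM in replicate 1.

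For Prdx6, most of the estimate in both libraries went to Prdx6-208, with 58.9% in replicate 2 and 91.5% in replicate 1. The annotation classes this transcript as subject to nonsense-mediated decay. It lacks an exon of 157 bases (chr1:161247257-161247413) that holds the codon of the peroxidatic cysteine, and it is the only 1 of the 9 annotated Prdx6 transcripts with its 3′ end. Transcripts classed as protein-coding received 12.9% of Prdx6 in replicate 2 and 2.31% in replicate 1. Prdx6-204, with 16.2% in replicate 2, and Prdx6-207, with 11.6%, were both at 0% in replicate 1 and are classed as processed transcripts without a coding sequence. The inclusion of that exon in single reads was not analysed here.

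**Figure D4:**
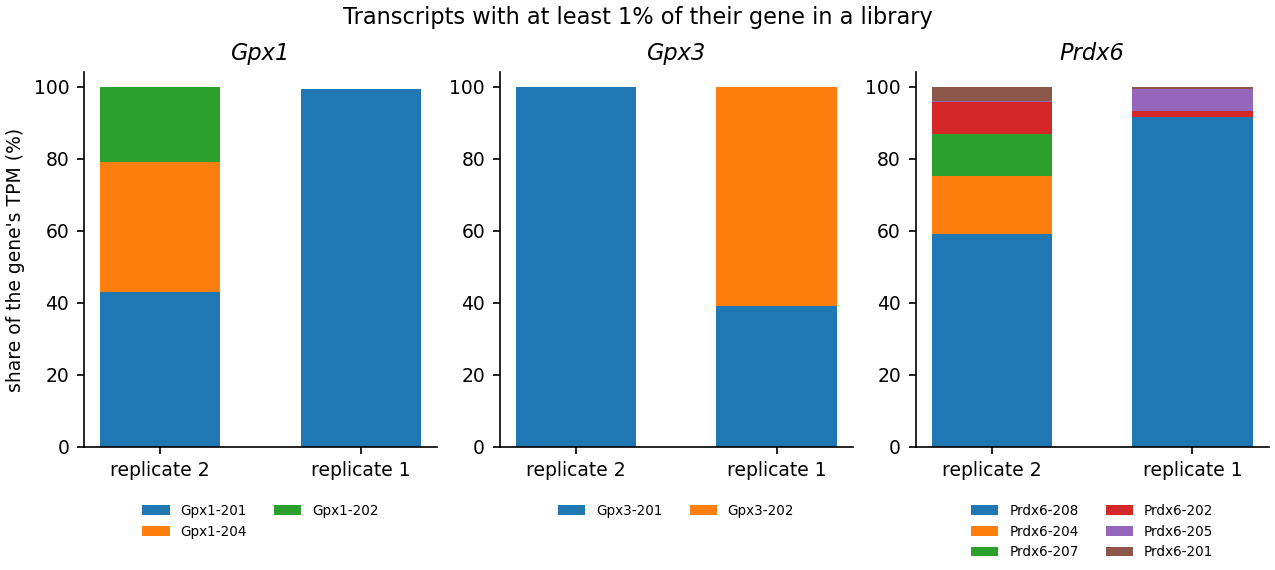
Share of each gene's TPM, in percent, assigned by the authors to its transcripts in replicate 2 (left bar of each panel) and replicate 1 (right bar), for transcripts with at least 1% in a library. Replicate 2 divides Gpx1 among 3 transcripts where replicate 1 has Gpx1-201 at 99.3%, Gpx3 divides in replicate 1 alone, and Prdx6-208 leads Prdx6 in both.

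The antioxidant response element, the core TGACNNNGC to which NRF2 binds together with small MAF proteins, was sought on both strands of RefSeq promoter windows of build GRCm38.p6, which run from 250 bases before to 50 bases after each start. Of all 32851 windows 12.4% held it. Windows were at hand for 7 of the enzymes, 9 windows in all. Hmox1, Prdx6 and Sod3 had no window and were not searched. Of the 9 windows 2 held the core, 1 in Sod1 and 1 among several windows of Txnrd1. They are shown with the core in capitals, read on the plus strand, where it appears as its reverse complement.

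Txnrd1: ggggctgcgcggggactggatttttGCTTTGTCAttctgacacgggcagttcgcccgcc
Sod1: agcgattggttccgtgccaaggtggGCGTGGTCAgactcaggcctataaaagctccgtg

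The Txnrd1 stretch lies at chr10:82859089-82859147, with the core 92 bases before the start, and the Sod1 stretch at chr16:90220681-90220739, with the core 56 bases before the start. A match is a stretch of letters and not a measured site. The libraries hold no contrast of NRF2 activity, so no measured value bears on these matches.

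The wider redox network held 97 other genes in 12 lists, of which 92 were tested. Of these, replicate 2 was higher by over 2-fold in 47, lower by over 2-fold in 20 and within 2-fold in 25, with a median log2 ratio of 1.10, or 0.11 after the averaged GC trend was subtracted. The shares of all tested genes were again 39.3% and 28.2%. Ccs, the chaperone that loads copper into Sod1, had 580 counts in replicate 2 and 0 in replicate 1. Against a floor of 3 counts it was 152-fold higher, and the lower limit of its counting interval was 123-fold. At either value Ccs lies above the median too, so the median does not depend on it. The folds in the lists below are before any GC trend was subtracted. Among the genes named there, subtracting the averaged trend turned the sign of Keap1 (-1.65 on the log2 scale), Hmox2 (-1.24), Sqstm1 (-0.86), Prdx1 (0.31), Sepsecs (0.26), Selenof (0.04) and Gpx8 (0.03).

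Among the other glutathione peroxidases, 3 of 4 tested genes were higher in replicate 2 by over 2-fold and 1 lower. Gpx4, which reduces lipid hydroperoxides in membranes, was 68.0-fold higher (11050 counts in replicate 2, 127 in replicate 1), a wider gap than that of Gpx1, with an interval of 57.3 to 82.0. Gpx2 was 68.6-fold higher (655 counts in replicate 2, 7 in replicate 1), with an interval of 35.4 to 183 that overlaps that of Gpx1. Gpx8, of the endoplasmic reticulum, was 2.68-fold lower, and Gpx6 had no counts in either library. Among the peroxiredoxins and sulfiredoxin, 2 of 6 were higher and 1 lower. Prdx5 was 33.2-fold and Prdx2 10.6-fold higher, and Prdx1, the most abundant of them with 587 TPM in replicate 2 and 2157 TPM in replicate 1, was 2.07-fold lower.

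The thioredoxin and glutaredoxin list had 2 genes higher and 1 lower of 9. Thioredoxin itself, Txn1, the substrate of Txnrd1, was 1.57-fold lower, and its binding protein Txnip 1.73-fold higher. Mitochondrial Txnrd2 had 286 counts in replicate 2 and 1 in replicate 1, which made it 149.9-fold higher (40.0 to 8895), and Glrx3 was 2.33-fold lower. In the list of glutathione synthesis, import and recycling, 3 of 8 tested genes were higher and 4 lower, with a median log2 ratio of -0.89. Gclc, the catalytic subunit of the rate-limiting ligase, was 2.06-fold lower, glutathione reductase Gsr 1.66-fold lower and Chac2, which degrades glutathione, 5.72-fold lower, while glutathione synthetase Gss was 10.8-fold higher.

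Of 14 glutathione transferases, 9 were higher by over 2-fold and none lower by as much, with a median log2 ratio of 1.93. Gstm1 was 22.2-fold higher, and Mgst3, with 950 counts in replicate 2 and 2 in replicate 1, had a ratio of 298 (103 to 3082). Mgst1, the most abundant with 708 TPM in replicate 2 and 1716 in replicate 1, was 1.85-fold lower. Of 8 genes that supply NADPH, 5 were higher and 3 lower. Tkt and Taldo1, of the pentose phosphate pathway, were 153-fold and 35.5-fold higher, and cytosolic isocitrate dehydrogenase Idh1 was 3.14-fold lower. In haem breakdown, beside Hmox1, 3 of 4 were higher and none lower. Por, which passes electrons to haem oxygenase, was 32.4-fold higher, the constitutive Hmox2 2.01-fold higher (over 2-fold lower after the averaged GC trend was subtracted) and Blvra, a biliverdin reductase, 1.32-fold higher.

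Among regulators of the NRF2 pathway, 5 of 10 were higher and 3 lower. Nfe2l2, which encodes NRF2, had 77.9 TPM in replicate 2, against 238 TPM in replicate 1, and was 2.77-fold lower. Keap1, the adaptor that marks NRF2 for degradation, was 6.43-fold higher, and its ubiquitin ligase partner Cul3 was 4.64-fold lower. The averaged GC content was 58.5% in Keap1, 45.0% in Nfe2l2 and 39.3% in Cul3. Sqstm1, which sequesters KEAP1, was 1.98-fold higher. After the averaged GC trend was subtracted, the median of this list was -1.22, against 1.34 before. Keap1 was then over 2-fold lower (-1.65), and Nfe2l2 (-0.35) and Cul3 (-0.15) were within 2-fold.

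Genes of selenoprotein synthesis, on which Gpx1, Gpx3 and Txnrd1 depend, were higher in 4 of 7 cases and lower in 1. Eefsec, the elongation factor for selenocysteine, was 31.3-fold higher (219 counts in replicate 2, 5 in replicate 1) and Trnau1ap 11.9-fold higher, while Sepsecs was 2.12-fold and Pstk 1.99-fold lower. Of the other selenoproteins 5 of 11 were higher and 4 lower. Selenop, the selenium carrier of plasma, had the highest mean level of the list, with 1063 TPM in replicate 2 against 3472 TPM in replicate 1, and was 3.23-fold lower. Selenof was 2.64-fold and Selenot 4.27-fold lower, and Selenom 145-fold higher (1018 counts in replicate 2, 5 in replicate 1). Selenoprotein mRNAs differed in both directions, as did all tested genes, of which 39.3% were higher and 28.2% lower. The median log2 ratio of the other selenoproteins was 0.13, or 0.04 after the averaged GC trend was subtracted. Among sources of superoxide and peroxide, 5 of 10 tested genes were higher and 2 lower. Cyba, the membrane subunit of the phagocyte oxidase, had 2529 counts in replicate 2 and 1 in replicate 1, a ratio of 1323 (356 to 78419), and Nox4, an oxidase that releases hydrogen peroxide, was 5.47-fold lower.

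**Figure D5:**
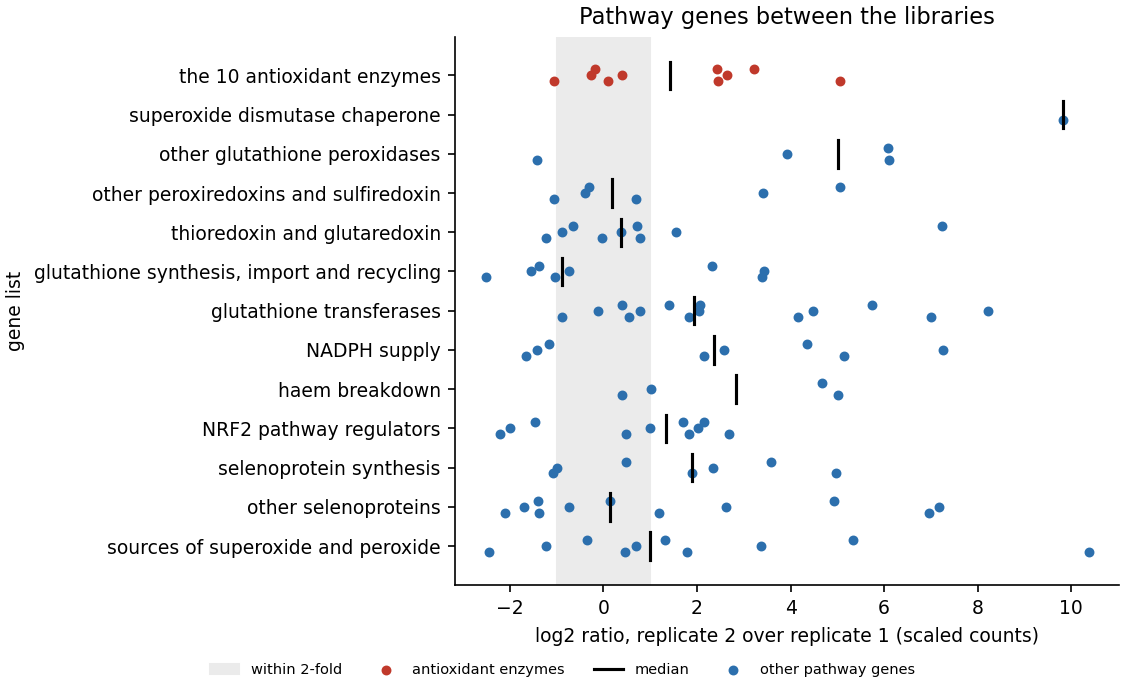
Log2 ratio of replicate 2 over replicate 1 for the 10 enzymes (red) and for tested genes of the 12 pathway lists (blue), with each list's median as a black bar and the range within 2-fold in grey; genes with 0 or 1 count in replicate 1, such as Ccs and Cyba, are placed by the added 0.5 counts. Among lists of more than 1 gene the median is lowest for glutathione synthesis, import and recycling (-0.89) and highest for the other glutathione peroxidases (5.01), and the glutathione transferases have no gene below the grey range.

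Markers of the cells that make these enzymes moved between the libraries too. Red cells carry much Gpx1, Cat and Prdx2, and 5 of 5 tested erythroid markers were over 2-fold higher in replicate 2, with a sum over all 6 of 41528 TPM in replicate 2 and 2007 TPM in replicate 1. Slc4a1, the anion exchanger of red cells, was at 0.1 TPM in replicate 2 and at 0 in replicate 1. Of the red cell enzymes named, which are not in the marker list, Gpx1 and Prdx2 were higher in replicate 2 and Cat was lower. The log2 ratio of Gpx1 went from 5.06 to 0.99 with the main-transcript GC trend subtracted. Of the 6 alveolar type 2 markers 4 were higher and 1 lower, and of the 7 alveolar macrophage markers 2 were higher and 1 lower (sums of 1944 TPM in replicate 2 and 2779 in replicate 1). Of the 6 markers of other macrophages and monocytes 4 were higher and none lower (sums of 342 TPM in replicate 2 and 41.5 in replicate 1). Subtracting the averaged GC trend took the median log2 ratio of this list from 4.01 to 1.07 and that of alveolar macrophages from -0.58 to 0.40. The median went from 4.06 to 1.61 for alveolar type 2 cells and from 5.18 to 2.72 for erythroid markers. The shares of all tested genes were 39.3% higher and 28.2% lower. Fewer cells of a type and less RNA per cell cannot be told apart in bulk tissue, and the part of cell content in the enzymes' ratios was not tested.

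The protein-coding genes nearest to Prdx6 in log2(TPM + 1) over the 2 libraries were Hspa8, Ly6a and Rps20, at distances of 0.147, 0.191 and 0.233. Those nearest to Gpx1 were Cox4i1, Ifitm3 and Uqcr10, at 0.174, 0.305 and 0.447. Cox4i1 had 816 TPM in replicate 2 and 18.0 TPM in replicate 1, close to the 723 TPM of Gpx1 in replicate 2 and its 18.15 TPM in replicate 1.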

How the data were processed

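Polyadenylated RNA of 1 mouse lung was measured in 2 libraries. Per the file headers, the authors deposited expected counts (estimated reads per gene or transcript), TPM, posterior mean values and percent shares of transcripts (a percent of the gene's TPM). Per the labels, reads were assigned to assembly mm10; the sources used here do not give the aligner or quantifier. Whole values made up 89.2% of counts above 0 in replicate 2 and 92.1% in replicate 1, within 0.005. The 26345 rows that name no gene held 0 counts.

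Expected counts were rounded, scaled by TMM (edgeR 4.0.16) and compared with a prior of 0.5 counts. Exact Clopper-Pearson 95% intervals of the ratio come from a gene's count in each library and cover no more than counting error. PCR copies are counted as separate reads, so the intervals may be too narrow for that error too. A floor of 3 counts stood for 0. Genes with a mean of at least 1 TPM were tested for passing 2-fold. Symbols, positions, transcript types and GC content came from a GENCODE reference for GRCm38, the assembly of mm10, of another release; 42462 genes matched, and 19 of the 26 enzyme transcripts had the same length. Promoter windows came from RefSeq. Trends on GC content were lowess fits (span 0.3). The ratio step was checked on simulated data, in which most genes were equal between the libraries and no GC trend was set. The libraries differed far more widely, so this check does not cover scaling under such differences.

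The enzymes and lists were chosen with earlier results of these data known. Named pathway genes were, per list, the 2 of highest mean TPM and those of highest and lowest ratio, with Gpx6 added after its values were seen. Alternatives were total counts, DESeq2 1.42.0 size factors, TPM with 0.5 added, posterior means, a prior of 2 counts, other thresholds and filters, and GC trends. Protein sequences were not analysed here.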

Additional observations from a re-analysis of the deposited data

How the results depend on the processing

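The count of 5 enzymes over 2-fold higher in replicate 2 held under total counts, DESeq2 size factors, TPM, posterior means, a prior of 2 counts, thresholds of 1.5-fold and 4-fold, no filter and a filter of 10 TPM. Over these settings the share of all genes that were higher ran from 29.2% at 4-fold to 44.3% at 1.5-fold. The count became 3 with the averaged GC trend subtracted, where 22.6% of all genes were higher. With the main-transcript GC trend subtracted it became 1, where 19.1% were. The count of 1 enzyme lower became 0 with total counts, where 22.4% of all tested genes were lower, and 0 at 4-fold, where 7.14% were. It became 3 with the averaged GC trend, where 20.5% were. With the main-transcript trend Gpx3 changed sign to -0.22, Prdx6 to -0.26 and Sod2 to 1.35; with the averaged trend Prdx6 did, to -0.83. Nqo1 was at -0.04 from TPM. The main-transcript trend, and the settings for pathway genes other than scaling and the averaged trend, were chosen after seeing the data. Of the 92 tested pathway genes, 47 were higher, where 39.3% of all tested genes were. This became 29 with the averaged trend, where 22.6% of all genes were higher, and 31 with the main-transcript trend, where 19.1% were. The 20 that were lower became 12 with the averaged trend, where 20.5% of all genes were lower. They became 13 with the main-transcript trend, where 16.2% were, and 4 at 4-fold, where 7.14% were. The log2 ratio of Gpx3 was 2.50 from TPM and 3.22 from counts. No paired analysis was possible because both libraries form 1 group of 1 animal. With 90 counts each in replicate 1, Hmox1 and Nqo1 are the enzymes whose ratios depth limits most.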
